A study of Trametes sanguinea with 15 samples.

Results

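Among the 14165 gene models of *Pycnoporus sanguineus* CIRM-BRFM 1264, a white-rot basidiomycete that GEO lists as Trametes sanguinea, 2 genes were followed here as candidates for the use of hemicellulose sugars inside the cell. Protein 1578979 belongs to KOG1577, the aldo/keto reductase group, and protein 1656427 belongs to KOG0024, the sorbitol dehydrogenase group. Both were picked by their protein IDs from the genes that the study had selected on measured transcript levels. The study took 1578979 from its wheat straw selection and 1656427 from its aspen selection, because their groups on its expression map were highly transcribed on that substrate but not on maltose or Avicel, and because each gene was higher there than on maltose. Libraries of maltose, Avicel, aspen and wheat straw had therefore already been used to choose these genes, and the contrasts among those 4 carbon sources are given below as descriptions, with no test. The xylan-galactomannan libraries took no part in that choice. The contrasts of xylan-galactomannan with each other carbon source were tested, and only their xylan-galactomannan side was independent of the choice.

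Sugars released from hemicellulose enter central metabolism in filamentous fungi through alternating reductions and oxidations. In the pathway worked out in ascomycetes such as Aspergillus niger, an aldose reductase of the aldo/keto reductase family turns xylose or arabinose into a sugar alcohol. Polyol dehydrogenases, among them members of the sorbitol dehydrogenase family, oxidise sugar alcohols to ketoses. Xylose reaches D-xylulose by one such pair of steps and arabinose by a longer series, and D-xylulose is then phosphorylated and passed to the pentose phosphate pathway. Galactose and other hexoses can follow a comparable route. The assignment of 1578979 and 1656427 to these families rests on the study's annotation, and the substrates of the encoded enzymes were not measured.

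Polyadenylated RNA was sequenced from whole mycelium after 3 days of liquid culture, in 15 libraries, with 3 for each of 5 carbon sources. The controls were grown on maltose at 20 g/l, an easily used sugar, and the other 4 media held 2.5 g/l of maltose together with 15 g/l of a further substrate. Avicel is a microcrystalline cellulose, aspen and wheat straw are ground plant biomass of a hardwood and a grass, and xylan-galactomannan is a mixture of hemicellulose polysaccharides. All groups were the same strain, and no strain was altered genetically. The replicates on maltose, Avicel, aspen and wheat straw were described as independent cultures. No such statement was found for xylan-galactomannan, so its 3 libraries may carry technical spread only. The p-values used a spread estimate shared by all 15 libraries, which may then understate the spread between cultures. Library totals ranged from 24209984 to 50428442 counts, and the smallest total was that of xylan-galactomannan library 1. The mean correlation of a library with the others of its group was lowest in xylan-galactomannan library 2 (0.946) and ranged from 0.985 to 0.99 on aspen and wheat straw. In RNA from whole mycelium, fewer hyphae transcribing a gene and less transcript in each hypha cannot be told apart.

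The reductase gene 1578979, with a gene model of 984 bases, had its highest level on xylan-galactomannan and its lowest on maltose. Its levels are given in CPM, a count normalised to the library total, here with totals scaled by TMM, the trimmed mean of M-values. On maltose the 3 libraries held 89, 113 and 54 counts of this gene, or 2.83, 3.83 and 2.18 CPM (mean 2.95 ± 0.829, SD, n = 3). All 3 values lay below every value on the other carbon sources. On Avicel the levels were 101, 37.2 and 47.5 CPM (62.0 ± 34.5, SD, n = 3), with library 1 standing above the other two. The aspen libraries gave 102, 192 and 150 CPM (148 ± 45.3, SD, n = 3). Wheat straw gave 266, 278 and 214 CPM (253 ± 33.7, SD, n = 3). On xylan-galactomannan the levels were 413, 1664 and 962 CPM (1013 ± 627, SD, n = 3). Even the lowest of these lay above the highest wheat straw value.

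The order of the reductase gene was thus xylan-galactomannan, wheat straw, aspen, Avicel and maltose. The groups next to each other in this order did not overlap, but aspen and Avicel were separated by only 0.0684 CPM, between aspen library 1 and Avicel library 1. How many of all genes show no such overlap was not counted. Corrected for gene length, 1578979 ranked 55th among all gene models in xylan-galactomannan library 2, 162nd in library 3 and 475th in library 1, against 8792nd to 9459th in the maltose libraries. The spread on xylan-galactomannan was wide, with library 2 holding 52051 counts of this gene and library 1 holding 8421.

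**Figure D1:**
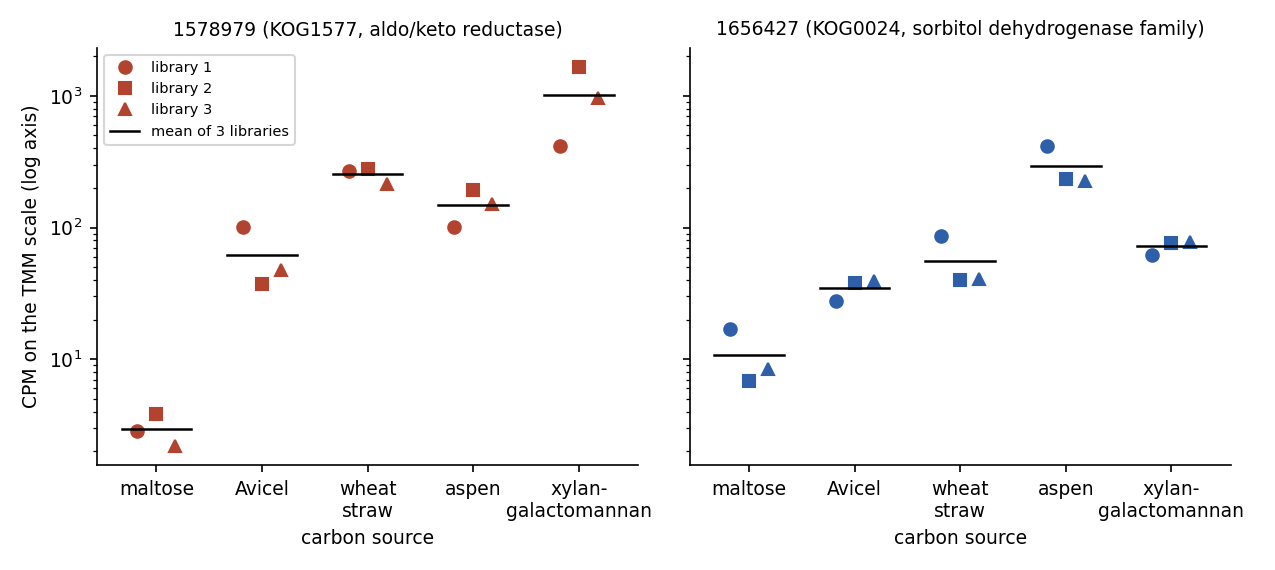
Level of each gene in every library (CPM on the TMM scale, log axis) by carbon source, for the reductase gene 1578979 at the left and the dehydrogenase gene 1656427 at the right, with 1 symbol per library and a line at the mean of 3 libraries. The reductase gene was highest on xylan-galactomannan (413 to 1664 CPM) and the dehydrogenase gene on aspen (224 to 418 CPM), and both were lowest on maltose.

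The dehydrogenase gene 1656427, with a gene model of 1561 bases, followed another order, with its highest level on aspen. Maltose libraries held 16.9, 6.81 and 8.40 CPM (10.7 ± 5.42, SD, n = 3), the lowest of the 5 groups. Avicel gave 27.9, 37.9 and 39.2 CPM (35.0 ± 6.18, SD, n = 3). The wheat straw levels were 86.8, 39.9 and 40.8 CPM (55.8 ± 26.8, SD, n = 3), with library 1 above the xylan-galactomannan libraries and the other two close to Avicel. On xylan-galactomannan the gene had 62.2, 75.7 and 77.7 CPM (71.9 ± 8.42, SD, n = 3). The 3 libraries that were far apart for the reductase gene were therefore close together for the dehydrogenase gene. On aspen the levels were 418, 234 and 224 CPM (292 ± 109, SD, n = 3), all above every library of the other groups. Xylan-galactomannan and wheat straw overlapped in this order, and wheat straw and Avicel were separated by 0.709 CPM.

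Xylan-galactomannan against maltose asked whether the 2 genes differed between the hemicellulose medium and the simple sugar control. The hemicellulose medium also held less maltose, so the added substrate and the lower maltose supply cannot be told apart here. A gene was called when its adjusted p was under 0.05 and its absolute log2 fold change was above 1, in edgeR's quasi-likelihood test with Benjamini-Hochberg adjustment over 11724 genes. Both genes rose, where 5.87% of the 11724 genes were called higher and 2.79% lower. The log2 fold change of 1578979 was 8.42 ± 0.64 (SE), or 343-fold (adjusted p = 5.3e-06, edgeR), and 2 genes of the 11724 had a larger one. That of 1656427 was 2.75 ± 0.40, or 6.71-fold (adjusted p = 0.00066, edgeR), and 185 genes had a larger one.

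Against Avicel, which shares the low maltose supply of the medium, 1578979 was 16.3-fold higher on xylan-galactomannan (log2 fold change 4.03 ± 0.52, adjusted p = 0.00015, edgeR). For 1656427 the difference was 1.04 ± 0.38 on the log2 scale and was not called (adjusted p = 0.057, edgeR, 95% interval 0.22 to 1.85). The 3 xylan-galactomannan values lay above the 3 Avicel values, but how many of all genes show no such overlap was not counted. In this contrast 9.1% of the genes were called higher and 4.53% lower. This was the only tested contrast of either gene whose call depended on the tool: it was called by DESeq2 (log2 fold change 1.01, adjusted p = 0.034) and by limma-voom (1.05, adjusted p = 0.032).

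The contrast with aspen was the one in which the 2 genes were called in opposite directions. The dehydrogenase gene had been chosen on aspen and the reductase gene on wheat straw, so these opposite calls partly follow from the choice. The reductase gene was 6.85-fold higher on xylan-galactomannan than on aspen (log2 fold change 2.78 ± 0.49, adjusted p = 7e-04, edgeR). The dehydrogenase gene fell by 2.02 ± 0.39 on the log2 scale, so that its level was 4.06-fold higher on aspen (adjusted p = 0.0012, edgeR). Here 14.7% of the genes were called higher and 11.5% lower (1726 and 1349 genes). With library size alone in place of TMM this balance turned to 904 higher and 2641 lower, and the calls of both genes held.

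Against wheat straw, 1578979 was 4.01-fold higher on xylan-galactomannan (log2 fold change 2.0 ± 0.48, adjusted p = 0.0051, edgeR; 95% interval 0.97 to 3.03). No difference was called for 1656427, at 0.36 ± 0.37 on the log2 scale (adjusted p = 0.46, edgeR; 95% interval -0.44 to 1.17). An increase of the dehydrogenase gene by up to 1.17 on that scale was within its interval. Over the 11724 genes, 11.9% were called higher and 9.6% lower (1390 and 1125 genes), and with library size alone 768 were higher and 2067 lower. The size of the reductase contrasts leaned on xylan-galactomannan library 2: without it, the log2 fold changes were 7.82 against maltose, 3.43 against Avicel, 2.16 against aspen and 1.41 against wheat straw, and all 4 were still called.

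**Figure D2:**
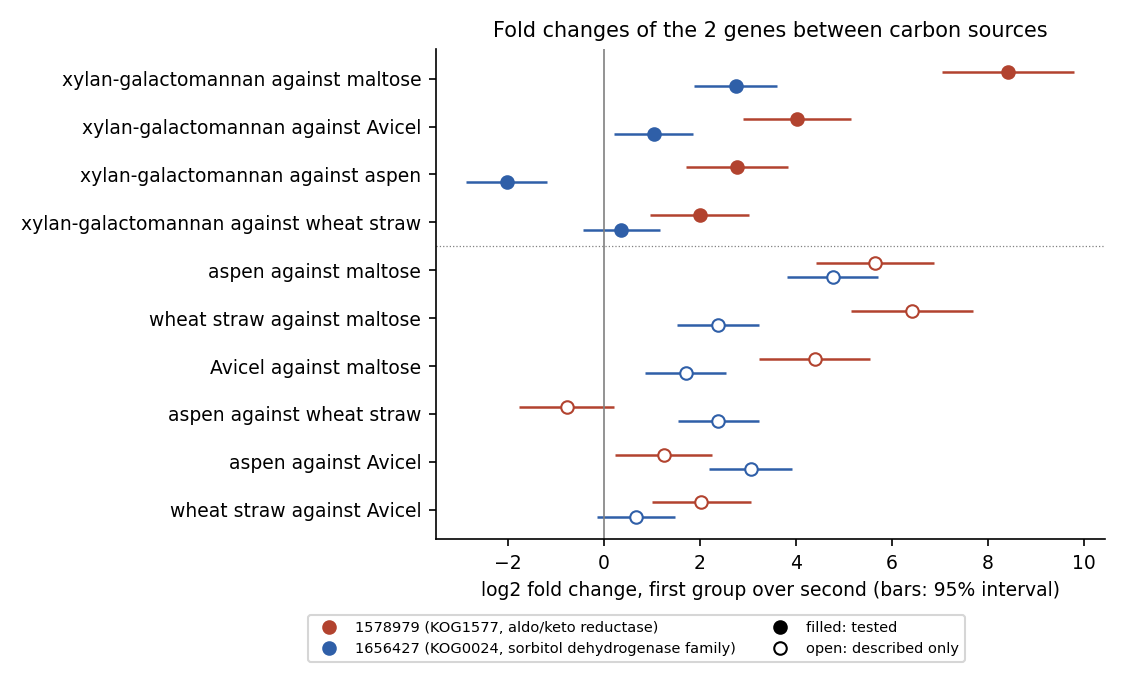
Log2 fold change of each gene between carbon sources (x axis, first group over second, with the 95% interval as bars), with tested contrasts filled and described contrasts open. The 2 genes lie on opposite sides of 0 for xylan-galactomannan against aspen (2.78 and -2.02), and the reductase gene lies to the right of the dehydrogenase gene in all 4 tested contrasts. The dehydrogenase gene had been chosen on aspen.

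The contrasts among the carbon sources that had served to choose the genes are given as values only. For 1578979 the log2 fold change over maltose was 6.42 ± 0.59 on wheat straw, 5.64 ± 0.57 on aspen and 4.39 ± 0.54 on Avicel. For 1656427 it was 2.38 ± 0.39 on wheat straw, 4.77 ± 0.44 on aspen and 1.71 ± 0.39 on Avicel. Avicel itself, a cellulose with no added hemicellulose, thus had higher values of both genes than maltose. As all media but the control held less maltose, the added substrate and the lower maltose supply cannot be told apart in contrasts over maltose. Between the 2 plant biomasses the estimates differed in sign, with aspen over wheat straw at -0.77 ± 0.46 for the reductase gene and 2.39 ± 0.39 for the dehydrogenase gene. The 95% interval of the reductase gene spanned both signs (-1.77 to 0.22), and each gene had been chosen on the biomass where it was higher. Over Avicel, the reductase gene had 2.03 ± 0.48 on wheat straw and 1.25 ± 0.47 on aspen. The dehydrogenase gene had 0.67 ± 0.37 on wheat straw and 3.06 ± 0.40 on aspen.

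The balance between the 2 genes changed with the carbon source, as seen when their levels were divided by gene length (CPM per kb) and set against each other within a library. On maltose the dehydrogenase gene was the higher of the pair, with a log2 ratio over the reductase gene of 1.91, 0.17 and 1.28. On aspen the libraries were split, at 1.38, -0.38 and -0.09, with the dehydrogenase gene higher in library 1. The reductase gene was the higher of the pair in all libraries on Avicel (-2.53, -0.64 and -0.94), wheat straw (-2.28, -3.46 and -3.06) and xylan-galactomannan (-3.40, -5.12 and -4.30). In the xylan-galactomannan libraries this made 10.5, 34.9 and 19.6 times as much reductase as dehydrogenase transcript per kb. The mean log2 ratio was -4.27 ± 0.86 (SD, n = 3) there and 0.30 ± 0.94 on aspen. As the dehydrogenase gene had been chosen on aspen and the reductase gene on wheat straw, the ratios on those substrates partly follow from the choice.

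**Figure D3:**
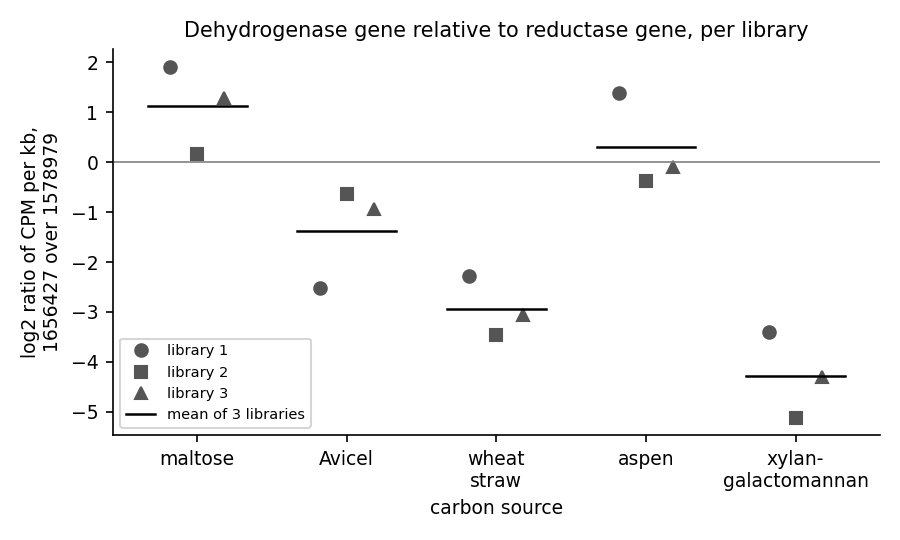
Log2 ratio of the dehydrogenase gene 1656427 to the reductase gene 1578979 (CPM per kb of gene model) in every library by carbon source, with 1 symbol per library and a line at the mean of 3 libraries. Values above 0 mean more dehydrogenase transcript, as in all 3 maltose libraries, and the lowest ratios (-3.40 to -5.12) are on xylan-galactomannan.

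Within a carbon source the 2 genes did not vary together in a way that could be detected. The deviation of each library from its group mean of log2 CPM gave a Pearson r of -0.17 between the genes over 15 libraries (exact two-sided permutation within groups, 7776 arrangements, p = 0.43). Spearman's rho was -0.37 (exact permutation p = 0.13). Without xylan-galactomannan libraries 1 and 2, the 2 farthest from the median for the reductase gene, r was -0.38. Both genes varied more between replicates than most, with a biological coefficient of variation of 0.40 for 1578979 and 0.328 for 1656427. The median over all genes tested was 0.222, and 87.8% and 79% of genes had a lower value than these 2 genes.

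Across all 15 libraries the log2 CPM of the 2 genes correlated with r = 0.669 and rho = 0.632, and 333 genes were more like 1578979 than 1656427 was. These correlations over libraries that share culture groups describe likeness of pattern only. The genes most like 1578979 were 466126 (r = 0.97), 1593966 (0.97), 1581370 (0.956), 1611075 (0.948) and 1673228 (0.941). Among them 1593966 and 1673228 belong to KOG0254, the group of membrane transporters that includes fungal sugar permeases. The mean of 1593966 rose from 2.01 CPM on maltose through 15.7 on Avicel, 60.6 on aspen and 78.0 on wheat straw to 112 on xylan-galactomannan. For 1673228 the means were 14.4, 50.6, 197, 318 and 474 CPM in the same order. Annotation was at hand only for the study's wheat straw and aspen selections, where 74 of 136 genes had a KOG group or an enzyme family. The next of these annotated genes was 1679979 (r = 0.939), of the CE15 family of glucuronoyl esterases, which cut ester links between the glucuronic acid of xylan and lignin.

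For 1656427 the closest genes were 1626448 (r = 0.983), 1589131 (0.982), 1571456 (0.978), 430268 (0.964) and 1594272 (0.962). Their means were all highest on aspen, from 7.40 CPM for 1589131 to 190 CPM for 1594272. The closest annotated genes were 174056 (r = 0.949), of the aspartyl protease group KOG1339, and 1592467 (r = 0.935), a short-chain dehydrogenase of KOG1208. The third was 1583293 (r = 0.916) of KOG4157, whose mean was 290 CPM on aspen and 0.196 CPM on maltose. In all, 54 genes had r over 0.9 with 1656427, against 13 with 1578979.

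**Figure D4:**
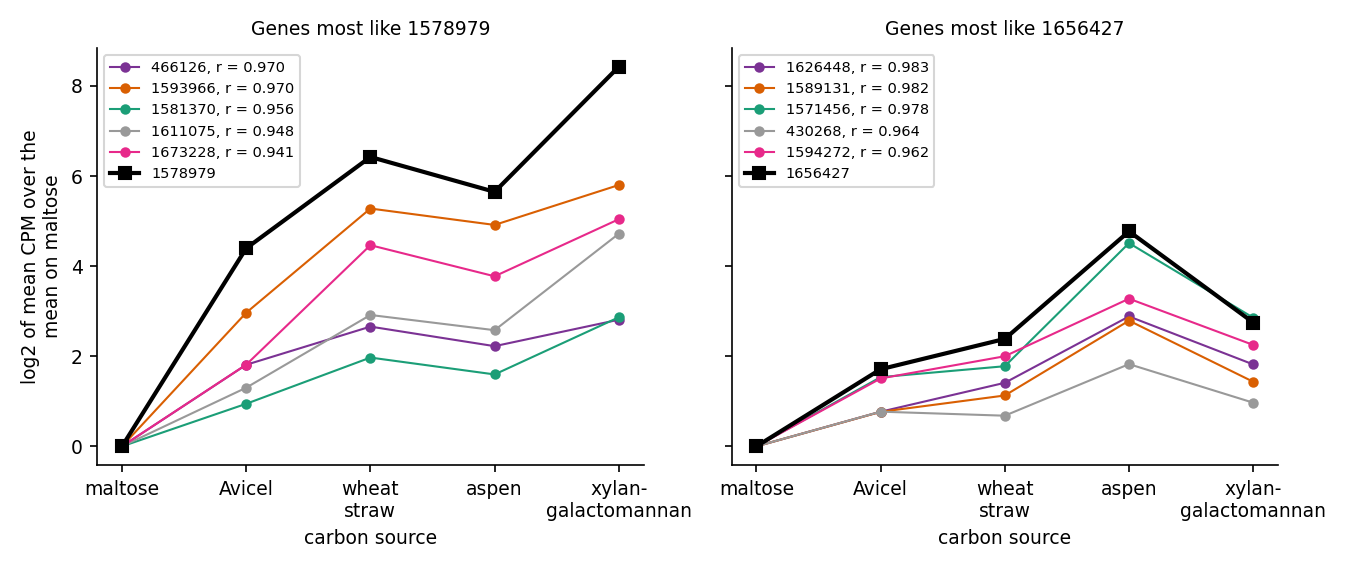
Log2 of the mean CPM on each carbon source over the mean on maltose (y axis, lines join the means of 3 libraries) for 1578979 and 1656427 (black squares) and for the 5 genes with the highest Pearson r to each over 15 libraries. The left profiles are highest on xylan-galactomannan and dip from wheat straw to aspen, and the right profiles peak on aspen.

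KOG0024, KOG1577, KOG1575, KOG1208 and KOG0725 were the only groups counted here as reductases and dehydrogenases. The study's wheat straw and aspen selections held 5 other genes of these groups. They had been selected on these same libraries for being higher than on maltose, so their direction against maltose is no independent evidence. Their map groups had been picked for high levels on wheat straw or aspen and not on Avicel. Counts against those substrates thus depend in part on the choice. Against maltose 5 of 5 were called higher on xylan-galactomannan, with a median log2 fold change of 2.29, where the median of all genes was 0.04 and 5.87% of genes were called higher. The count was 3 of 5 without maltose library 2 (alternatives on these lists were chosen after seeing the data). In that fit 467 of all genes were called higher, in place of 688. Against Avicel 2 of 5 were called higher (median 0.54, all genes 0.05), where 9.1% of all genes were. Against aspen 1 was higher and 1 lower (median -0.18, all genes 0.02), beside 14.7% and 11.5% of all genes. Against wheat straw 1 was higher and 2 were lower (median -0.89, all genes 0.04), beside 11.9% and 9.6%.

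One of these 5 was called in the same direction as 1578979 in all 4 tested contrasts, 1610012 of KOG1575, a second aldo/keto reductase group. Its levels were 287 ± 47.0 CPM on xylan-galactomannan, 129 ± 23.6 on aspen, 60.4 ± 41.6 on wheat straw, 61.7 ± 5.40 on Avicel and 30.5 ± 5.07 on maltose (SD, n = 3). It was called higher on xylan-galactomannan in all 4 contrasts, at 9.39-fold over maltose, 4.65-fold over Avicel, 2.22-fold over aspen and 4.75-fold over wheat straw (adjusted p from 0.00014 to 0.017, edgeR). The call against aspen was lost in 3 of 15 alternatives: without aspen library 2, without xylan-galactomannan library 3, and with library size alone.

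The second KOG0024 gene, 1613859, is annotated as a butanediol dehydrogenase and did not share the aspen maximum of 1656427. Its mean was 269 ± 29.7 CPM on wheat straw, 117 ± 21.8 on aspen, 105 ± 121 on Avicel, 75.9 ± 33.5 on xylan-galactomannan and 15.5 ± 4.45 on maltose (SD, n = 3). On xylan-galactomannan it fell by 1.83 ± 0.63 on the log2 scale relative to wheat straw (adjusted p = 0.034, edgeR), and this call was lost in 5 of 15 alternatives, all of which left out 1 library. Gene 1611298, annotated as a D-arabinitol dehydrogenase, was higher on xylan-galactomannan than on maltose (8.99-fold, adjusted p = 0.00029, edgeR) and than on Avicel (3.12-fold, adjusted p = 0.0073, edgeR). Relative to wheat straw it was called lower, at -1.09 ± 0.38 on the log2 scale (adjusted p = 0.034, edgeR), and this call too was lost when any of 5 single libraries was left out. The call against Avicel was lost without the 3 libraries that stood apart from their groups (Avicel 1, xylan-galactomannan 2 and maltose 3) and in a fit of 6 libraries only. Gene 1592467, of KOG1208, was called lower than on aspen, as 1656427 was, at -1.47 ± 0.24 (adjusted p = 0.00039, edgeR).

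The selections also held 5 genes of the transporter group KOG0254, of which 4 were called higher on xylan-galactomannan than on maltose (median log2 fold change 4.35, all genes 0.04) and 4 than on Avicel (median 2.86, all genes 0.05). Of all genes, 5.87% and 9.1% were called higher in these contrasts. The 5 transporter genes had also been chosen for being higher than on maltose, so that direction is no independent evidence. All were chosen on wheat straw, and 1673228 on aspen too, in map groups not highly transcribed on Avicel. Counts against wheat straw and Avicel, and against aspen for 1673228, thus depend in part on that choice. None of the 5 was called higher than on aspen or wheat straw, where 14.7% and 11.9% of all genes were. The 1 called lower in each contrast was 1613810 (-1.83 ± 0.19 and -2.73 ± 0.20, adjusted p = 1.6e-05 and 2.4e-06, edgeR), beside 11.5% and 9.6% of all genes. Without xylan-galactomannan library 2, 2 of the 5 were called lower than on aspen and 3 than on wheat straw. With single libraries left out, genes called in either direction numbered 2619 to 3534 against aspen and 2057 to 3096 against wheat straw. With all libraries they numbered 3075 and 2515. In that main fit the medians of the 5 genes were 0.83 and 0.05, beside 2.78 and 2.0 for the reductase gene, and the difference between genes was not tested. For the 2 transporter genes most like it the differences from aspen were 0.89 ± 0.40 for 1593966 and 1.27 ± 0.56 for 1673228 (adjusted p = 0.085 and 0.078, edgeR). Both were called against aspen when xylan-galactomannan library 1 was left out.

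The same selections held 6 genes of enzyme families with members that act on the side chains or short products of hemicellulose (GH2, GH3, GH43, GH95, CE15 and CE16). Substrates were not measured, and the genes were listed by family alone. They too had been chosen for being higher than on maltose, in map groups not highly transcribed on maltose or Avicel. Their direction against maltose is therefore no independent evidence. Their map groups had been picked for high levels on wheat straw or aspen, so counts against Avicel, aspen and wheat straw depend in part on the choice. Of these 6 genes, 5 were called higher on xylan-galactomannan than on maltose (median 3.05) and 4 than on Avicel (median 1.67), beside 5.87% and 9.1% of all genes. The count against Avicel was 1 in a fit of 6 libraries only, where 553 of all genes were called higher in place of 1067. The GH3 gene 1537322 lost its call against Avicel in 8 of 15 alternatives. Against aspen 3 were higher and 2 lower (all genes 14.7% and 11.5%), and against wheat straw 1 was higher and 2 were lower (all genes 11.9% and 9.6%). Without xylan-galactomannan library 2 these counts were 1 higher and 2 lower against aspen, and 0 higher and 3 lower against wheat straw. With single libraries left out, 2619 to 3534 of all genes were called against aspen and 2057 to 3096 against wheat straw, in either direction. Gene 1592100, the 1 called higher over wheat straw, lost that call in 7 of 15 alternatives. The glucuronoyl esterase gene 1679979 had the largest change of these 6 against maltose, 162-fold (log2 fold change 7.34 ± 0.88, adjusted p = 0.00017, edgeR), with 6.45 to 7.79 over the 15 alternatives. The beta-mannosidase gene 1664834 of family GH2, an enzyme that releases mannose from mannan fragments, was 6.11-fold higher than on Avicel and 3.16-fold higher than on aspen (adjusted p = 0.00065 and 0.0046, edgeR). The call against aspen was lost without xylan-galactomannan library 2, and over the 15 alternatives the log2 fold change of 1664834 ranged from 1.72 to 2.98 against Avicel. The GH43 gene 1695354, of a family with arabinofuranosidases and xylosidases, was called lower than on aspen (-2.65 ± 0.63, adjusted p = 0.0046, edgeR).

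**Figure D5:**
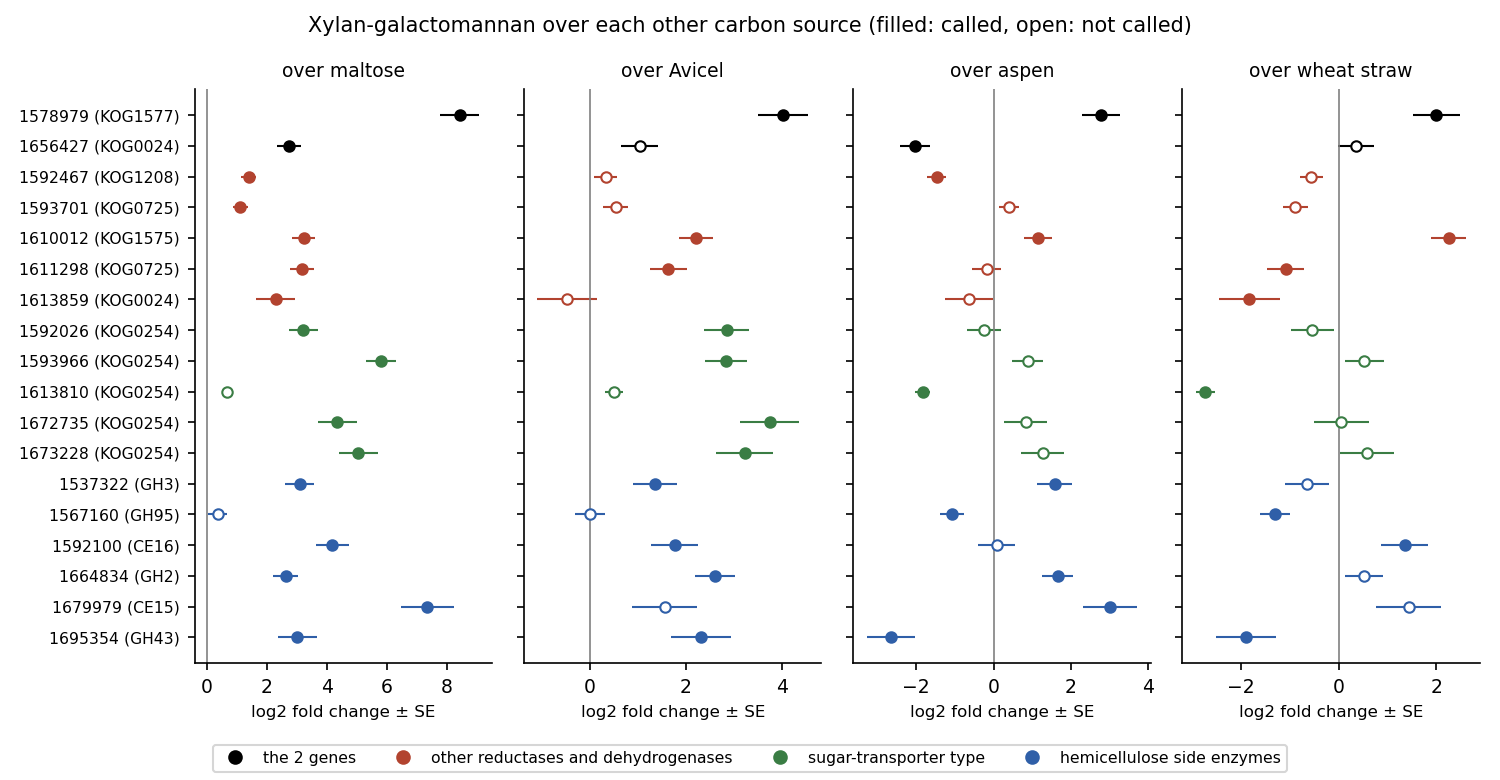
Log2 fold change ± SE on xylan-galactomannan over each of the other 4 carbon sources for the 2 genes (black), the 5 other reductases and dehydrogenases, the 5 transporter-type genes and the 6 hemicellulose side enzymes, with called genes filled. The reductase gene 1578979 is filled and to the right of 0 in all 4 panels, as is 1610012, and the dehydrogenase gene 1656427 is filled and to the left of 0 over aspen.

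Each of the 2 genes had neighbours on the study's expression map, which had been placed there by similar levels on the carbon sources other than xylan-galactomannan. The reductase gene shared its map group, number 13 on the map, with 2 selected genes, 1679979 and the protein kinase gene 1602759 of KOG1187. On xylan-galactomannan 1602759 was called lower than on wheat straw (-1.50 ± 0.47, adjusted p = 0.022, edgeR) while 1679979 had 1.43 ± 0.66 (adjusted p = 0.1, edgeR), which was called without xylan-galactomannan library 1. The call of 1602759 was lost without wheat straw library 1 and without xylan-galactomannan library 1 or 2.

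The dehydrogenase gene shared group number 30 with 7 selected genes, of which 5 were called lower on xylan-galactomannan than on aspen and 0 higher, as 1656427 was called lower (median -2.02, all genes 0.02). Of all genes, 11.5% were called lower and 14.7% higher in this contrast. Over maltose 6 of these 7 were called higher (median 2.17), beside 5.87% of all genes. The aspen-high pattern of this group, with levels above those on maltose, had been part of its selection. Against Avicel 2 were called higher and 1 lower (all genes 9.1% and 4.53%), and the lower one, 1609244, lost its call in 6 of 15 alternatives. The count of 2 higher was 0 in a fit of 6 libraries only and 1 without the 3 libraries that stood apart. Of all genes, 553 and 1432 were called higher in these fits, in place of 1067. Against wheat straw 1 was higher and 3 were lower (all genes 11.9% and 9.6%). The 1 called higher, 1592100, lost its call in 7 of 15 alternatives, and 1590784, among the lower ones, lost its call in 4 of 15. The member with the smallest difference from aspen was 1592100, of the CE16 acetyl esterase family, at 179 ± 54.4 CPM against 169 ± 70.5 on aspen (log2 difference 0.08 ± 0.47, SE).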

How the data were processed

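After filtering and trimming, the authors mapped paired reads to this strain's genome (TopHat2) and made counts per gene model (HTSeq). Versions, strand and multiple-mapping settings were not stated in the sources read, so reads shared with similar or overlapping genes were not assessed. The deposited counts were used for all tests. The deposited normalised signal (counts divided by 1 size factor per library, DESeq 1.5 per the labels) was not tested, and the deposited gene model length in bases is another kind of value. The counts were fitted with edgeR 4.0.16 in R 4.3.3: filterByExpr on the groups left 11724 of 14165 genes, both genes included, followed by TMM scaling and a robust quasi-likelihood fit of 5 group means over 15 libraries (common biological coefficient of variation 0.281). Benjamini-Hochberg adjustment was made within each of 4 contrasts, and 6 others were only described. Log2 CPM used a prior count of 2. DESeq2 1.42.0, limma 3.58.1 voom, other scalings, filters and sample choices were alternatives.

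The 2 genes and the gene lists were chosen with earlier results of these data known. Lists came from the annotation of the study's wheat straw and aspen selections (136 genes). Named genes were the 2 genes, the list members and, for each gene, the 5 genes and the 3 genes annotated in those selections with the highest Pearson r of log2 CPM. No genome of this strain was used here, so no sequences or coordinates are given.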

Additional observations from a re-analysis of the deposited data

How the results depend on the processing

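The 7 tested contrasts of the 2 genes other than that of 1656427 against Avicel kept their direction and side of the threshold in all 9 settings and with each library left out. For 1656427 on xylan-galactomannan against Avicel, the log2 fold change of 1.04 was called with DESeq2 (1.01), limma-voom (1.05), the replicate block (1.03) and the 6 libraries compared alone (1), with adjusted p over all settings from 0.027 to 0.21. Leaving out single libraries gave 0.9 to 1.13. Replicate numbers did not pair the libraries (correlations of same-numbered deviations from -0.37 to 0.4), and the block changed no other call of the 2 genes. Genes called against maltose numbered 1015 as reported, 444 with the 6 libraries alone and 1948 without Avicel 1, xylan-galactomannan 2 and maltose 3. Against Avicel they numbered 1598, 933 and 2515. The causes were not tested. Without those 3 libraries 1578979 had 3.70 for Avicel against maltose, and with library size alone 1656427 had 3.51 for aspen against Avicel. Library size alone moved the median of all genes to -0.42 against aspen and -0.32 against wheat straw, where the 2 genes kept their calls. The maltose libraries held 54 to 113 counts of 1578979, which limits the precision of its fold changes over maltose.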
